A study of Saccharomyces cerevisiae with 3 samples.

Results

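The cytosolic ribosomal protein genes of *Saccharomyces cerevisiae* were followed in aged haploid yeast of 3 genotypes. They were taken from the array annotation by their symbols: *RPL* or *RPS* followed by digits and an optional A or B, and the stalk genes *RPP0*, *RPP1A*, *RPP1B*, *RPP2A* and *RPP2B*. This gave 127 genes measured by 147 probe sets, of 5449 *S. cerevisiae* genes on an array of 10928 probe sets, and of 137 genes that carry such a name in the R64 gene table. The large ribosomal subunit accounted for 75 of them, the stalk included, and the small subunit for 52. The other 10 genes, among them *RPL1A*, *RPL7B*, *RPL35B*, *RPL41B*, *RPL42A*, *RPS4A*, *RPS6A* and *RPS30B*, had no probe set of their own name and were not analysed here. Their partners *RPL1B*, *RPL7A*, *RPL35A*, *RPL41A*, *RPL42B*, *RPS4B*, *RPS6B* and *RPS30A* were measured only by probe sets that can bind transcripts of both genes. The values of these partners may therefore include the gene without a probe set.

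Ribosomal proteins join ribosomal RNA to form the subunit that decodes mRNA and the subunit that makes the peptide bond. In yeast most of them are encoded by a pair of near-identical paralogues named A and B, kept since an ancient duplication of the genome. Their genes are transcribed together in growing cells, under Rap1, Fhl1, Ifh1 and Sfp1 downstream of the TOR and protein kinase A pathways, and are among the most strongly repressed when nutrients run out.

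Total RNA was hybridized to Affymetrix Yeast Genome 2.0 arrays, with 1 array for each of *rtg3Δ met15Δ*, *met15Δ* and wild-type cells. All strains were haploids of the BY4741/BY4742 background, carrying *his3Δ1*, *leu2Δ0* and *ura3Δ0*, and were aged to Day 3 in synthetic complete medium. The *met15Δ* cells lack the sulfhydrylase that lets yeast make methionine from inorganic sulfur, a genetic form of methionine restriction. The *rtg3Δ met15Δ* cells also lack Rtg3, a transcription factor of the retrograde response from mitochondria to nucleus, whose gene was replaced by a *KanMX* marker; the comparison of the 2 mutants asks which expression changes need *RTG3*. The mating type of each profiled strain is not given in the sources used here, and an *rtg3Δ* single mutant was not analysed here. The deposited values are linear RMA signals in arbitrary units, and each comparison below is the log2 ratio of 2 signals of the same gene. With 1 array per genotype there is no error on any value and no test between genotypes, so every difference below describes 3 arrays. The arrays show the share of each transcript in the RNA, so fewer cells that express a gene and less of its RNA per cell cannot be told apart.

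The deleted genes had the signals that the labels call for. *MET17*, the current name of *MET15*, had a signal of 90.0 in *rtg3Δ met15Δ*, 85.0 in *met15Δ* and 2874 in wild-type cells. *RTG3* had 28.7 in *rtg3Δ met15Δ*, 2215 in *met15Δ* and 2703 in wild-type cells. Against the highest signal of another species' probe set (273 to 289 on the 3 arrays), these were differences of at least 10.5-fold for *MET17* between *met15Δ* and wild-type, and of at least 7.66-fold for *RTG3* between *rtg3Δ met15Δ* and *met15Δ*. The 6 a-cell genes examined summed to 32413 in *rtg3Δ met15Δ*, 12811 in *met15Δ* and 1854 in wild-type cells, where 4 of the 6 lay under the highest signal of another species. The 4 alpha-cell genes summed to 5827, 1917 and 3759 in the same order, and 1 of them (*MF(ALPHA)2*) lay under that level on all 3 arrays. Each genotype is a single strain, so a difference in mating type or another strain difference cannot be told apart from the deletions in any ratio below.

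Ribosomal protein transcripts were lowest in *rtg3Δ met15Δ* cells, intermediate in *met15Δ* and highest in wild-type. Their median signal was 6687 in *rtg3Δ met15Δ*, 10751 in *met15Δ* and 12701 in wild-type cells. Over all *S. cerevisiae* genes the median signal was 1456 in *rtg3Δ met15Δ*, 1551 in *met15Δ* and 1503 in wild-type cells. The median ribosomal protein gene thus followed an order that the median gene did not. Of the 127 genes, 103 were lowest in *rtg3Δ met15Δ*, intermediate in *met15Δ* and highest in wild-type cells, against 21.3% of all genes, but on the scale of the bacterial control probe sets 10 of the 127 had this order, against 16.2% of all genes. A further 14 had their highest signal in *met15Δ*, 10 had their lowest signal there, and 0 were higher at both steps. The comparisons share arrays (*met15Δ* enters 2 of the 3, and so do wild-type and *rtg3Δ met15Δ*), so they are given side by side and not as independent results.

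Between *met15Δ* and wild-type cells the shift was small and widely shared. The median log2 ratio was -0.24, a 1.18-fold lower signal, against 0.07 over all *S. cerevisiae* genes, and 113 of the 127 genes had a ratio below 0 (89.0%) against 43.6% of all genes. The ratios also lay close together, with an interquartile range of 0.25 against 1.15 over all genes. Few members passed a fold cut-off. At least 2-fold lower were 2 members (1.57%), *RPS9A* and *RPS27A*, against a background of 11.1%, and 0 members were at least 2-fold higher, against 16.9%. At 1.5-fold, 8 members were lower, against 20.4% of all genes, and 2 were higher, against 29.1%. At 1.3-fold, 26 members (20.5%) were lower against 27.5%, and 3 were higher against 37.1%. Ribosomal protein genes were therefore rarer past each cut-off than genes at large on these arrays, while the lower direction was more frequent among them. They are also brighter, with a median wild-type signal of 12701 against 1503 over all genes. The shares of all genes are not matched for signal level, and whether that level bears on the narrow spread was not tested. The direction depended on the scaling. The 21 bacterial control probe sets had a median log2 ratio of -0.62 in this comparison. Their scale, here and below, is set by the mean of their log2 signals and not by that median. On it the median of the ribosomal protein genes became 0.30 and that of all genes 0.61. There, 3 members were at least 2-fold higher and 1 lower, against 33.7% and 4.83% of all genes.

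The lowest ratios of that comparison belonged to small-subunit genes. *RPS9A* encodes a copy of Rps9, a protein of the small-subunit body that bears on decoding accuracy, and had a log2 ratio of -2.04. *RPS27A*, for a zinc-finger protein, followed with -1.09, then *RPS28A* with -0.97 and *RPS28B* with -0.87, and *RPS22B* with -0.72. Rps28 is known to hold down its own *RPS28B* mRNA, and the *RPS22B* pre-mRNA is known as a substrate of the RNase Rnt1. *RPS14B* (-0.64), *RPL14A* (-0.63) and *RPS7B* (-0.62) completed the 8 genes that were at least 1.5-fold lower, so that 7 of the 8 came from the small subunit. Of the 14 genes that were higher in *met15Δ*, 9 belonged to the large subunit, which holds 75 of the 127 members, and these included *RPL27B* (0.78), *RPL7A* (0.48), *RPL3* (0.33) and *RPL16A* (0.31). *RPL18B* (0.78) was also among them, as the mean of 2 probe sets at 1.60 and -0.03 that the sources used here do not annotate alike. *RPL3* encodes a protein that reaches towards the peptidyl transferase centre and has no paralogue. *RPS28A*, at 1.96-fold, was the member nearest to the 2-fold cut-off from below, and *RPS27A*, at 2.13-fold, the nearest from above.

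Loss of *RTG3* in *met15Δ* cells went with a larger shift, in the same direction on the deposited scale. The median log2 ratio of *rtg3Δ met15Δ* over *met15Δ* was -0.58, a 1.5-fold lower signal, against -0.02 over all genes, with an interquartile range of 0.41 against 1.0. Lower signals were found for 117 members (92.1%), against 51.5% of all genes. At least 1.5-fold lower were 63 members (49.6%), against 23.9%, and at least 1.3-fold lower were 99 (78.0%), against 32.8%. The 2-fold cut-off did not separate the group from the rest: 13 members (10.2%) were at least 2-fold lower, against 10.6% of all genes. In the higher direction, 1 member (*RPS9A*) passed 2-fold, against 10.4%, 3 passed 1.5-fold, against 19.9%, and 5 passed 1.3-fold, against 27.5%. The bacterial control probe sets had a median log2 ratio of 0.78 here, and on their scale the median of the members was -1.35, with 110 members and 39.8% of all genes at least 2-fold lower.

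The 13 genes that were at least 2-fold lower in *rtg3Δ met15Δ* than in *met15Δ* comprised 8 of the large subunit and 5 of the small subunit. *RPS0A*, for a protein needed to mature the small subunit, had signals of 3547 in *rtg3Δ met15Δ*, 10305 in *met15Δ* and 11112 in wild-type cells. *RPL31B*, whose product sits by the exit of the peptide tunnel, had 3637 in *rtg3Δ met15Δ*, 10328 in *met15Δ* and 12156 in wild-type cells. Both genes differed little between *met15Δ* and wild-type cells and were 2.90-fold and 2.84-fold lower in *rtg3Δ met15Δ* than in *met15Δ*. *RPL13A* had 1682 in *rtg3Δ met15Δ*, 4223 in *met15Δ* and 4735 in wild-type cells, a log2 ratio of -1.33 between the mutants. *RPL27B* had 2623 in *rtg3Δ met15Δ*, 6393 in *met15Δ* and 3725 in wild-type cells, so its highest signal was in *met15Δ*, and its log2 ratio of -1.29 between the mutants left it 1.42-fold below wild-type. The others included *RPS1A* (-1.18), *RPS9B* (-1.16), *RPL4B* (-1.13), *RPS0B* (-1.10), *RPL24A* (-1.09), *RPL33B* (-1.09), *RPL8B* (-1.07) and the stalk gene *RPP1B* (-1.06). *RPL6A* and *RPL16A* lay just short of the cut-off.

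**Figure D1:**
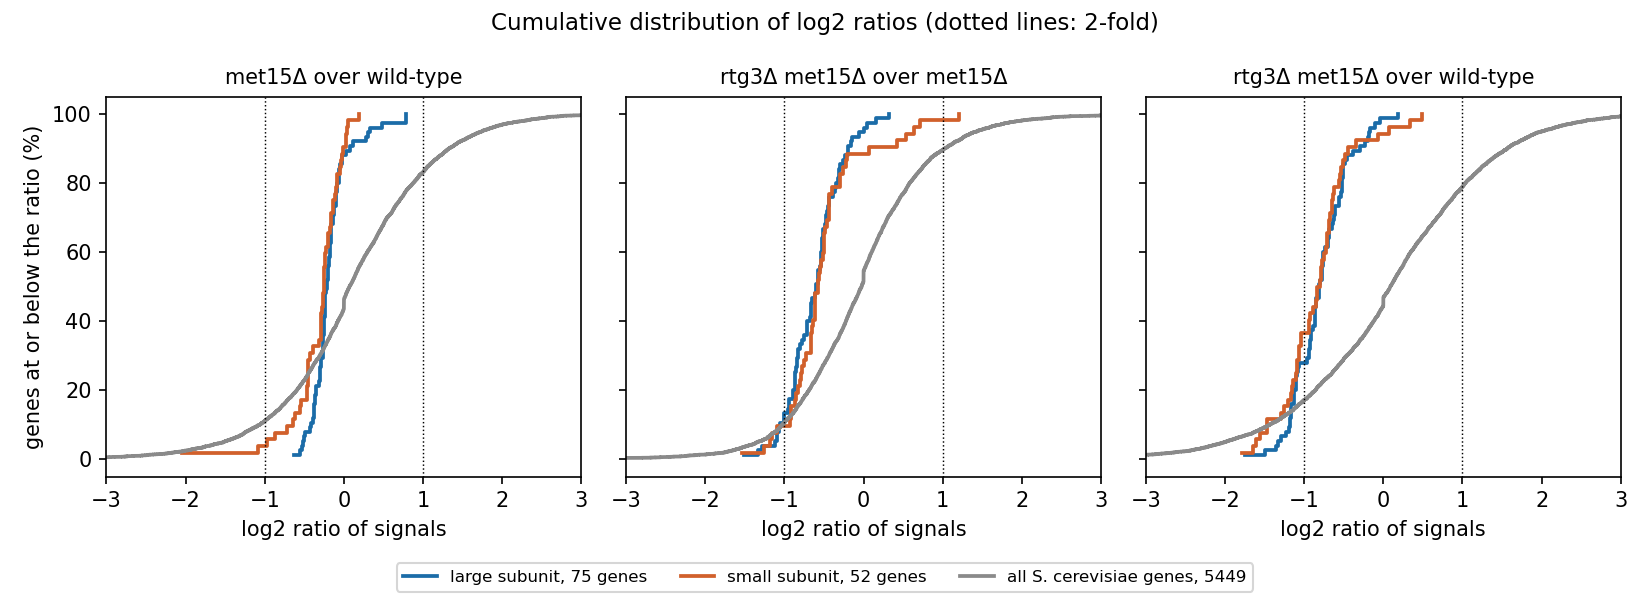
Cumulative share of genes (y axis, percent) at or below each log2 ratio (x axis) in the 3 comparisons, for the 75 large-subunit genes, the 52 small-subunit genes and all 5449 *S. cerevisiae* genes. The curves of the 2 subunits lie almost on each other, with medians of -0.22 and -0.26, -0.60 and -0.58, and -0.81 and -0.82 in the 3 panels, left of the curve of all genes over most of their length.

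Set against wild-type, *rtg3Δ met15Δ* cells had the lowest median ribosomal protein ratio of the 3 comparisons on the deposited scale. The median log2 ratio was -0.81, a 1.76-fold lower signal, against 0.09 over all genes, with an interquartile range of 0.48 against 1.5. Of the 127 genes, 123 (96.9%) were lower, against 44.4% of all genes. At least 2-fold lower were 40 members (31.5%), against 17.2%, at least 1.5-fold lower were 96 (75.6%), against 26.6%, and at least 1.3-fold lower were 114 (89.8%), against 32.1%. In the higher direction 0 members passed 2-fold, against 21.1%, 0 passed 1.5-fold, against 32.7%, and 1 (*RPS25B*) passed 1.3-fold, against 39.2%. The bacterial control probe sets had a median log2 ratio of 0.24 in this comparison, and on their scale the median of the members was -1.05, with 72 members and 22.4% of all genes at least 2-fold lower. On that scale the median between the mutants was the lower one, at -1.35.

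Of the 40 genes past the 2-fold cut-off against wild-type, 21 belonged to the large and 19 to the small subunit. *RPS28B* had signals of 2682 in *rtg3Δ met15Δ*, 5086 in *met15Δ* and 9274 in wild-type cells, and the lowest log2 ratio of all members in this comparison, -1.79. It was followed by *RPL31B* (-1.74), *RPS0A* (-1.65), *RPS1A* (-1.60) and *RPS0B* (-1.56). *RPS28A* (-1.47), the paralogue of *RPS28B*, was lower at both steps as well. The 34 others included, from the lowest ratio upwards, *RPL13A*, *RPL6B*, *RPP1B*, *RPL8B*, *RPS7B*, *RPS8B*, *RPL33B*, *RPS24B*, *RPL36A*, *RPL4B*, *RPL17A*, *RPL14A*, *RPL8A*, *RPS17A*, *RPL2B*, *RPS10A*, *RPS9B*, *RPL6A*, *RPL21B*, *RPL12B*, *RPL38*, *RPL23B*, *RPL17B*, *RPS16B*, *RPS21A*, *RPS17B*, *RPL39*, *RPL21A*, *RPS26B*, *RPS22A*, *RPL24A*, *RPS24A* and *RPS15*. Of these, *RPS24A* and *RPS15* (-1.04 each) lay just inside the cut-off and *RPL34A* (-0.96) just outside it. The *RPS24A* value is the mean of 2 probe sets on either side of the cut-off, at -1.11 and -0.98. The 4 genes with a ratio above 0 were *RPS25B* (0.49), *RPS30A* (0.34), *RPL18B* (0.18) and *RPS14B* (0.07).

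A member at or next to the median of each subunit shows the size of the step between the mutants. *RPL23B*, at the large-subunit median of the comparison between the mutants, had signals of 6815 in *rtg3Δ met15Δ*, 10318 in *met15Δ* and 14619 in wild-type cells. It was not typical against wild-type. Its log2 ratio was -0.50 in *met15Δ*, with a large-subunit median of -0.22, and -1.10 in *rtg3Δ met15Δ*, with a median of -0.81. *RPS13*, next to the small-subunit median, had 9352 in *rtg3Δ met15Δ*, 13953 in *met15Δ* and 16254 in wild-type cells. *RPL10*, whose protein joins late and completes the large subunit, stood among the least changed, with 19954 in *rtg3Δ met15Δ*, 22004 in *met15Δ* and 22395 in wild-type cells. Members with a higher mean signal had somewhat higher log2 ratios, across 126 genes without *RPL41A*. Spearman's rho was 0.23 for *met15Δ* over wild-type, 0.27 for *rtg3Δ met15Δ* over *met15Δ* and 0.36 for *rtg3Δ met15Δ* over wild-type. Pearson's r was 0.15, 0.10 and 0.22 in the same order. These points share the arrays, and genes are not independent replicates.

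A few members had a higher signal in *rtg3Δ met15Δ* than in *met15Δ*, against the direction of the group. *RPS9A* had a signal of 3453 in *rtg3Δ met15Δ*, 1502 in *met15Δ* and 6188 in wild-type cells, a 4.12-fold difference between *met15Δ* and wild-type and a 2.3-fold difference between the mutants. *RPS27A* had 16708 in *rtg3Δ met15Δ*, 10751 in *met15Δ* and 22848 in wild-type cells. *RPS14B* had 5712 in *rtg3Δ met15Δ*, 3482 in *met15Δ* and 5442 in wild-type cells. Rps14, a protein of the platform, is known to repress its own *RPS14B* copy. *RPS25B*, for a protein used by internal ribosome entry sites, had 13591 in *rtg3Δ met15Δ*, 9347 in *met15Δ* and 9656 in wild-type cells. *RPS30A*, whose probe set can also bind *RPS30B* transcripts, had 18510 in *rtg3Δ met15Δ*, 13761 in *met15Δ* and 14619 in wild-type cells. All 5 had their lowest signal in *met15Δ* cells, and the highest was in wild-type for *RPS9A* and *RPS27A* and in *rtg3Δ met15Δ* for *RPS14B*, *RPS25B* and *RPS30A*. They were chosen by a high ratio between the mutants, which a low signal on the *met15Δ* array alone can give. In *rtg3Δ met15Δ* over wild-type *RPS9A* was -0.84, beside a median of -0.81 over all members. There *RPS27A* was -0.45, *RPS14B* 0.07, *RPS30A* 0.34 and *RPS25B* 0.49. The log2 ratios of *rtg3Δ met15Δ* over *met15Δ* were 1.20 for *RPS9A*, 0.71 for *RPS14B*, 0.64 for *RPS27A*, 0.54 for *RPS25B* and 0.43 for *RPS30A*, and all 5 belong to the small subunit. *RPL37B* (0.16), *RPS22B* (0.07), *RPL9A* (0.04) and *RPL23A* (0.01) were also above 0, and so was *RPL41A*, the last of the 10, whose signal in *met15Δ* was below the level reached by other species' probe sets, so that its ratio is given only as at least 1.10-fold and its place among the 10 is not resolved.

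**Figure D2:**
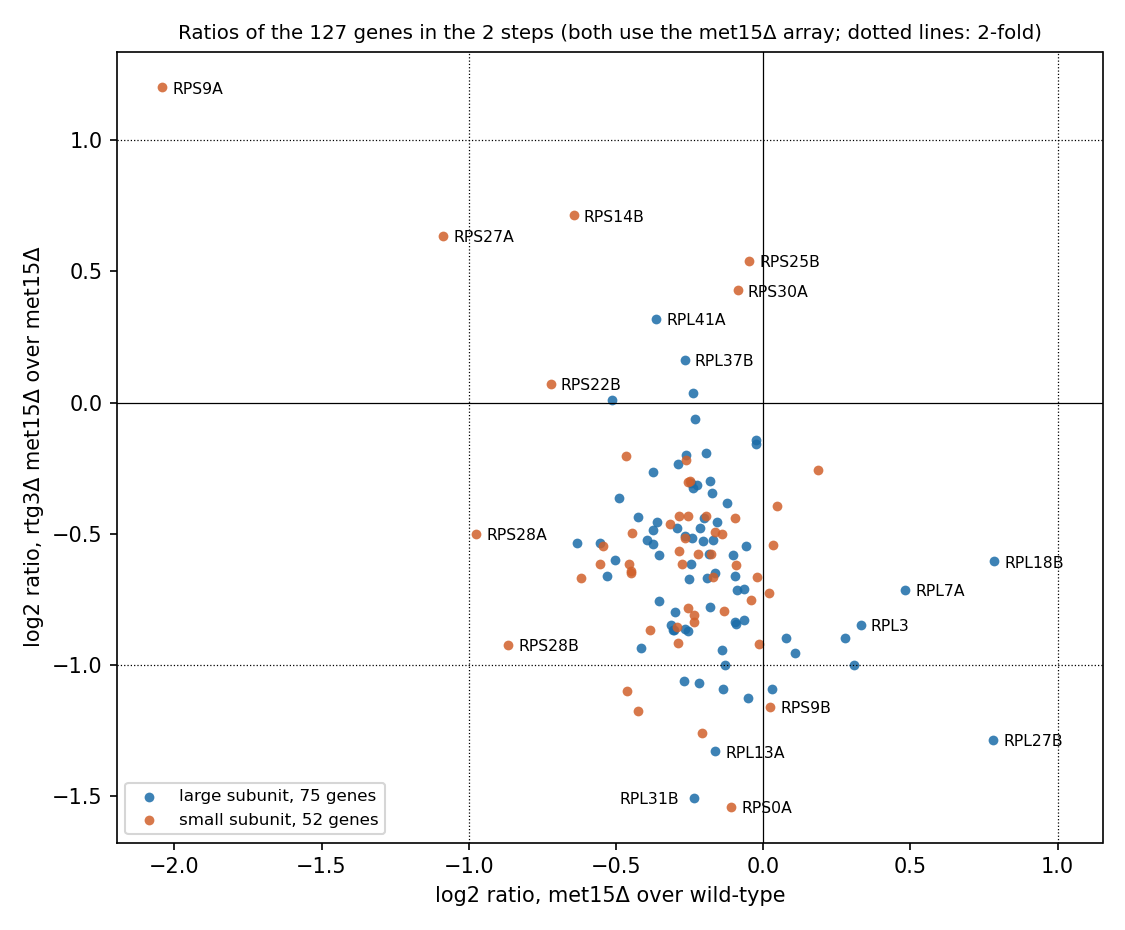
Log2 ratio of *met15Δ* over wild-type (x axis) against that of *rtg3Δ met15Δ* over *met15Δ* (y axis) for the 127 ribosomal protein genes, 1 point per gene, coloured by subunit, with dotted lines at 2-fold. Most points lie at the lower left, *RPS9A* stands alone at -2.04 and 1.20, and *RPL27B* at 0.78 and -1.29; the *met15Δ* array enters both axes, with opposite sign.

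**Figure D3:**
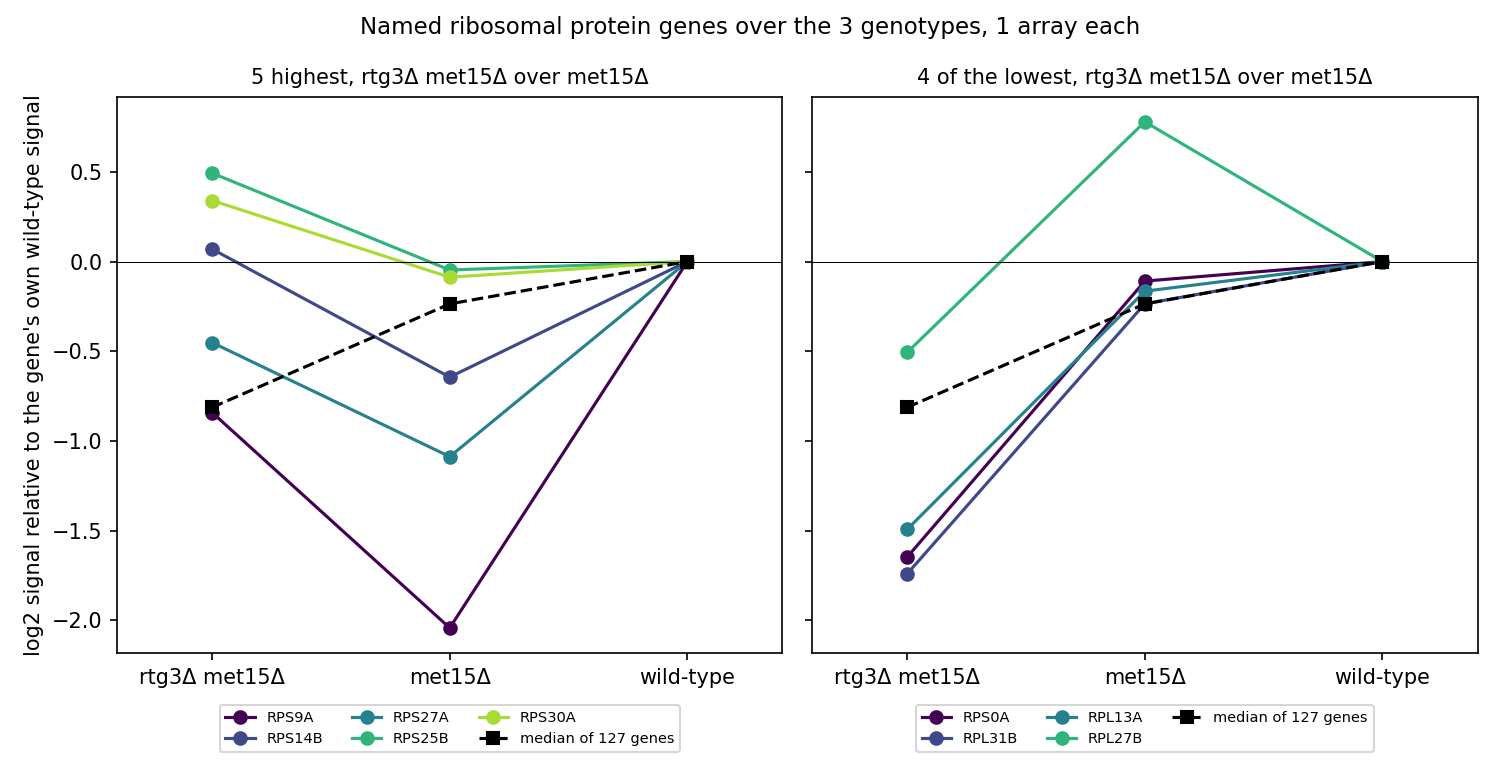
Log2 signal relative to the gene's own wild-type signal (y axis) in *rtg3Δ met15Δ*, *met15Δ* and wild-type cells, for the 5 highest (left) and 4 of the lowest (right) ribosomal protein genes by the ratio of *rtg3Δ met15Δ* over *met15Δ*, with the median of the 127 genes dashed. The dashed line stands at -0.81 in *rtg3Δ met15Δ* and -0.24 in *met15Δ*, while *RPS9A* stands at -0.84 and -2.04.

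Whether a change in *met15Δ* cells needs *RTG3* was asked with the rule of the study's methods: a gene at least 2-fold apart between *met15Δ* and wild-type counts as *RTG3*-dependent when its fold change is at least 2-fold weaker in *rtg3Δ met15Δ*. Among the ribosomal protein genes, 2 were 2-fold apart and 1 of these, *RPS9A*, met the rule. Over all *S. cerevisiae* genes it was met by 285 of 1525. The rule thus had only *RPS9A* and *RPS27A* to work on here, since the other 125 members did not reach 2-fold in *met15Δ* cells. *RPS27A* stood 2.13-fold below wild-type in *met15Δ* and 1.37-fold below it in *rtg3Δ met15Δ*. By probe set, 3 of 147 were 2-fold apart, and the 1 that met the rule was that of *RPS9A*. The *met15Δ* array enters both folds of the rule with opposite sign, so a low signal on it alone can meet the rule. On the scale of the bacterial controls *RPS9A* was at 0.43 between the mutants, short of the rule.

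The large and small subunits moved by nearly the same amount. In *met15Δ* over wild-type the median log2 ratio was -0.22 for the large and -0.26 for the small subunit. In *rtg3Δ met15Δ* over *met15Δ* it was -0.60 for the large and -0.58 for the small subunit, and in *rtg3Δ met15Δ* over wild-type -0.81 for the large and -0.82 for the small subunit. The medians thus differed by at most 0.04 log2 units in the 3 comparisons. The spread differed more, but which subunit had the wider spread depended on the comparison. Several members far from the group were small-subunit genes. They included *RPS9A*, *RPS27A*, *RPS28A* and *RPS28B* on the low side in *met15Δ* over wild-type. On the high side between the mutants they included *RPS9A*, *RPS14B*, *RPS27A*, *RPS25B* and *RPS30A*. Large-subunit genes stood far out as well, such as *RPL31B* (-1.51), *RPL13A* (-1.33) and *RPL27B* (-1.29) on the low side between the mutants. The interquartile range of *met15Δ* over wild-type was 0.32 over the small-subunit genes and 0.20 over the large-subunit genes. That of *rtg3Δ met15Δ* over *met15Δ* was instead 0.35 over the small-subunit and 0.42 over the large-subunit genes. In *rtg3Δ met15Δ* over wild-type it was 0.45 over the small-subunit and 0.53 over the large-subunit genes.

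Functional classes within the ribosome had medians below 0 in the 3 comparisons, to differing extents. The stalk, which recruits and activates the elongation factors, comprises *RPP0*, *RPP1A*, *RPP1B*, *RPP2A* and *RPP2B*, and all 5 genes were lower at both steps, with median log2 ratios of -0.25 for *met15Δ* over wild-type, -0.61 for *rtg3Δ met15Δ* over *met15Δ* and -0.85 for *rtg3Δ met15Δ* over wild-type. *RPP1B* was the lowest of them in *rtg3Δ met15Δ*, with a signal of 5721, against 11925 in *met15Δ* and 14354 in wild-type cells. *RPL40A*, *RPL40B* and *RPS31* encode ribosomal proteins fused to ubiquitin and are also a source of ubiquitin. Their medians were -0.17, -0.30 and -0.56 in the 3 comparisons, nearer to 0 than the -0.24, -0.58 and -0.81 of all members. Their 3 log2 ratios of *rtg3Δ met15Δ* over *met15Δ* were -0.16 for *RPL40A*, -0.65 for *RPL40B* and -0.30 for *RPS31*. Over wild-type those of *rtg3Δ met15Δ* were -0.18 for *RPL40A*, -0.81 for *RPL40B* and -0.56 for *RPS31*. The 18 genes whose symbol carries neither A nor B had medians of -0.20, -0.54 and -0.74 in the 3 comparisons, and all 18 were lower in *rtg3Δ met15Δ* than in either of the other genotypes. They include *RPL5*, whose product carries the 5S ribosomal RNA together with Rpl11 and had a log2 ratio of -0.53 between the mutants, *RPL30* (-0.52), which controls its own splicing, *RPL25* (-0.83), at the exit of the peptide tunnel, and *RPS3* (-0.66), at the entry of the mRNA channel. *RPL3* (-0.85) was the lowest of the 18 between the mutants and *RPL10* (-0.14) the highest.

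Paralogues were compared by the ratios of A and B, since the signals of 2 different probe sets cannot be set against each other. Both genes were measured in 50 pairs, 29 of the large and 21 of the small subunit. Neither copy was favoured as a class: the ratio was higher for A in 24 pairs and for B in 26 in *met15Δ* over wild-type, and higher for A in 26 and for B in 24 in both other comparisons. The median absolute difference between the log2 ratios of A and B was 0.17 in *met15Δ* over wild-type, 0.32 in *rtg3Δ met15Δ* over *met15Δ* and 0.31 in *rtg3Δ met15Δ* over wild-type. The copies differed by at least 1.5-fold in 3, 12 and 8 of the 50 pairs, and by at least 2-fold in 2, 2 and 1. Of the pairs, 18 rest in part on probe sets whose names end in _s_at or _x_at, which can bind transcripts of both copies, so their A and B values are not separate measurements. Over the 32 pairs without such probe sets the median absolute differences were 0.22, 0.42 and 0.33. Of these 32, 3, 10 and 6 differed by at least 1.5-fold.

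The *RPS9* pair differed most. *RPS9A* was -2.04 and *RPS9B* 0.02 in *met15Δ* over wild-type, a difference of -2.06, and in *rtg3Δ met15Δ* over *met15Δ* *RPS9A* was 1.20 and *RPS9B* -1.16, a difference of 2.36. The signals of *RPS9B* were 3982 in *rtg3Δ met15Δ*, 8889 in *met15Δ* and 8754 in wild-type cells, with the lowest of the 3 in *rtg3Δ met15Δ*, whereas the lowest signal of *RPS9A* was in *met15Δ*. In *rtg3Δ met15Δ* over wild-type the *RPS9* copies stood close, at -0.84 for *RPS9A* and -1.14 for *RPS9B*. The *RPL27* pair differed by -1.14 in *met15Δ* over wild-type, with *RPL27A* at -0.36 and *RPL27B* at 0.78. The *RPS27* pair differed by 1.20 in *rtg3Δ met15Δ* over *met15Δ*, with *RPS27A* at 0.64 and *RPS27B* at -0.56. The *RPS25* pair differed by -1.12 in *rtg3Δ met15Δ* over wild-type, with *RPS25A* at -0.63 and *RPS25B* at 0.49. None of these 4 pairs has an _s_at or _x_at probe set.

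Other pairs differed by less than 2-fold. In *met15Δ* over wild-type the next pairs were *RPS27* (A minus B -0.80), *RPS7* (0.58) and *RPL19* (0.46). In *rtg3Δ met15Δ* over *met15Δ* they were *RPS25* (-0.97), *RPS14* (-0.93) and *RPL31* (0.84), in which *RPS14A* (-0.22) was lower and *RPS14B* (0.71) higher in *rtg3Δ met15Δ*. In *rtg3Δ met15Δ* over wild-type they included *RPL31* (0.88), *RPS1* (-0.67) and *RPL14* (-0.65), of which *RPL14* has an _s_at or _x_at probe set. At the other end, pairs such as *RPL17* (-0.01, -0.07 and -0.07 in the 3 comparisons) and *RPL43* (0.16, 0.01 and 0.17) had copies with nearly equal ratios.

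**Figure D4:**
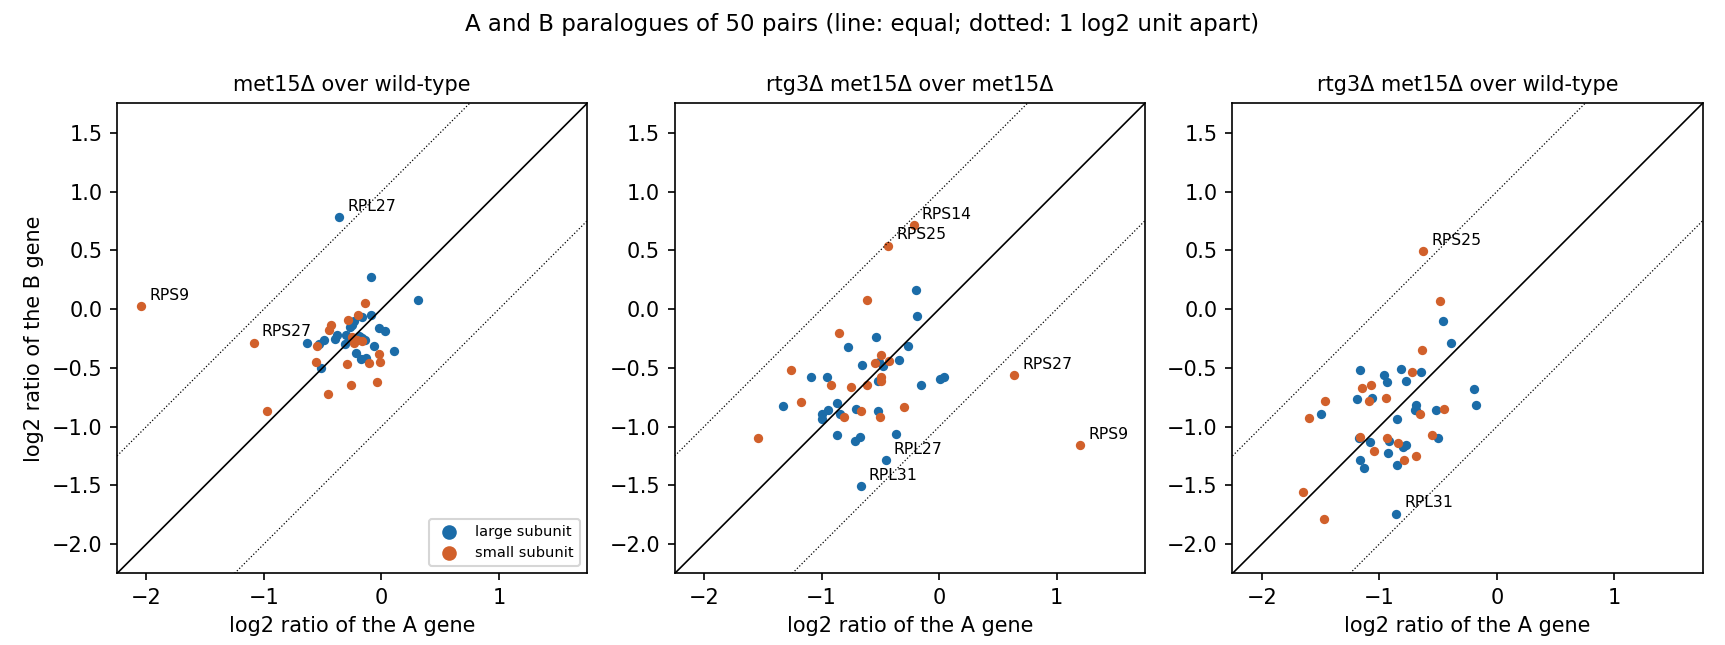
Log2 ratio of the A gene (x axis) against that of the B gene (y axis) for 50 paralogue pairs in the 3 comparisons, coloured by subunit, with a solid line at equality and dotted lines 1 log2 unit from it; pairs at least 0.8 apart are named. *RPS9* and *RPL27* lie outside the dotted lines in *met15Δ* over wild-type, *RPS9* and *RPS27* in *rtg3Δ met15Δ* over *met15Δ*, and *RPS25* in *rtg3Δ met15Δ* over wild-type.

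The probes set limits on some members. The 29 member probe sets whose names end in _s_at or _x_at had medians of -0.12, -0.49 and -0.60 in the 3 comparisons, against -0.25, -0.61 and -0.86 for the other 118. In the 20 genes with 2 probe sets, the log2 ratios of both differed by a median of 0.11, 0.08 and 0.16. The probe sets differed most for *RPL18B*, *RPS17B* and *RPS23A*. The *RPL18B* probe set without such an ending had signals of 970 in *rtg3Δ met15Δ*, 1394 in *met15Δ* and 458 in wild-type cells, and its _s_at probe set 8764 in *rtg3Δ met15Δ*, 14110 in *met15Δ* and 14451 in wild-type cells. The corresponding log2 ratios of *met15Δ* over wild-type were 1.60 and -0.03, and the *RPL18B* value of 0.78 is their mean. *RPS17B* had -0.35 for its _s_at and -0.93 for its other probe set in *rtg3Δ met15Δ* over *met15Δ*, and -0.62 and -1.56 in *rtg3Δ met15Δ* over wild-type, so its place among the 40 genes rests on the probe set without the ending. *RPS23A* had -0.34 for its _s_at and -0.97 for its other probe set in *rtg3Δ met15Δ* over wild-type. *RPL41A*, for a very short protein, had signals of 300 in *rtg3Δ met15Δ*, 241 in *met15Δ* and 310 in wild-type cells, and was the member with a signal under the highest one of another species (273 in *met15Δ*), so its order over the genotypes is not resolved.

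Some members are neighbours in the genome. By the R64 gene order there are 9 adjacent pairs of member genes, 5 of them divergent, 2 convergent and 2 on the same strand. Divergent neighbours can share the stretch between their starts as promoter. *RPL13B* and *RPS16A*, a divergent pair, had ratios of -0.83 and -0.92 between the mutants, and *RPS22A* and *RPL39* had -0.61 and -0.53. *RPS16B* and *RPL13A* (-0.65 and -1.33), *RPL24A* and *RPL30* (-1.09 and -0.52) and *RPS15* and *RPP2A* (-0.78 and -0.52) stood further apart. *RPS14B* and *RPS22A*, which are convergent, had 0.71 and -0.61.

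The genes that act on ribosomal proteins were examined as 5 lists. For the counts of these lists, the shares of all genes at least 2-fold higher and 2-fold lower were 16.9% and 11.1% for *met15Δ* over wild-type, 10.4% and 10.6% for *rtg3Δ met15Δ* over *met15Δ*, and 21.1% and 17.2% for *rtg3Δ met15Δ* over wild-type. Among 18 transcription regulators of these genes, 3 passed 2-fold upwards and 3 downwards in *met15Δ* over wild-type, 2 and 2 in *rtg3Δ met15Δ* over *met15Δ*, and 2 and 2 in *rtg3Δ met15Δ* over wild-type. The 2 upwards in that last comparison were *YAK1* and *CRF1*, of which *CRF1* is bounded only at 1.53-fold. The list medians were -0.19, -0.09 and 0.02. *IFH1*, the coactivator whose binding to Fhl1 turns the genes on, had signals of 586 in *rtg3Δ met15Δ*, 1044 in *met15Δ* and 1887 in wild-type cells, the same order as most ribosomal protein genes. *CRF1*, the corepressor that competes with Ifh1 for Fhl1, had 418 in *rtg3Δ met15Δ*, 1311 in *met15Δ* and 170 in wild-type cells, and since the wild-type signal lay under that of other species' probe sets, it was at least 4.80-fold higher in *met15Δ* and at least 1.53-fold higher in *rtg3Δ met15Δ* than in wild-type. *FHL1* had 475 in *rtg3Δ met15Δ*, 610 in *met15Δ* and 859 in wild-type cells, and *RAP1*, which recognizes most of these promoters, had 1333 in *rtg3Δ met15Δ*, 1479 in *met15Δ* and 1912 in wild-type cells. *SFP1*, an activator that leaves the nucleus on starvation, differed little, with log2 ratios of 0.17, -0.12 and 0.05. *HMO1*, a high-mobility-group protein of these promoters, was -0.98, 0.50 and -0.47. *ESA1*, the acetyltransferase of NuA4, and *DOT6*, a repressor of ribosome biogenesis genes, lay below wild-type in *met15Δ* (-1.09 and -1.26) and lay above *met15Δ* in *rtg3Δ met15Δ* (1.4 and 1.67). *ABF1*, a general regulatory factor, ran the opposite way (1.28 and -1.17). *YAK1*, the kinase that acts on Crf1, was higher in both mutants than in wild-type (1.29 in *met15Δ* and 1.33 in *rtg3Δ met15Δ*), and *TBF1*, a factor of telomeric and promoter repeats, was lower in both (-1.75 in *met15Δ* and -2.01 in *rtg3Δ met15Δ*).

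The dedicated chaperones and import receptors of ribosomal proteins had lower medians than the ribosomal protein genes in the 3 comparisons, at -0.56, -0.87 and -1.25 against -0.24, -0.58 and -0.81. Among 11 such genes, 1 passed 2-fold upwards and 5 downwards in *met15Δ* over wild-type, 0 and 5 in *rtg3Δ met15Δ* over *met15Δ*, and 0 and 7 in *rtg3Δ met15Δ* over wild-type, against the shares of all genes given above. *RRB1*, the chaperone of Rpl3, had signals of 541 in *rtg3Δ met15Δ*, 1695 in *met15Δ* and 4857 in wild-type cells. *TSR2*, which escorts Rps26, had 541 in *rtg3Δ met15Δ*, 1650 in *met15Δ* and 4236 in wild-type cells. *SQT1*, the chaperone of Rpl10, had 673 in *rtg3Δ met15Δ*, 1071 in *met15Δ* and 4200 in wild-type cells. These 3, picked from the 11, followed the order of most ribosomal protein genes, over a wider range than their clients. The client *RPL3* was instead highest in *met15Δ*, with a signal of 22572. The clients had higher signals than the chaperones, and whether signal level bears on the ranges was not tested. In *rtg3Δ met15Δ* over wild-type the log2 ratio was -3.17 for *RRB1* and -0.52 for *RPL3*, and -2.64 for *SQT1* and -0.17 for *RPL10*. There *TSR2* was -2.97, *RPS26A* -0.55 and *RPS26B* -1.07. *SYO1*, which carries Rpl5 and Rpl11 into the nucleus, was -2.35 in that comparison, *FAP7*, a partner of Rps14, -1.36, *ACL4*, the chaperone of Rpl4, -1.25, and the import receptor *PSE1* -1.11. *KAP123*, another import receptor, was highest in *met15Δ* (1.02 over wild-type, with *rtg3Δ met15Δ* at -1.21 over *met15Δ*). Other genes of the list did not follow the order either. *BCP1* and *YAR1* had their lowest signal in *met15Δ*. At -0.33 and -0.48 in *rtg3Δ met15Δ* over wild-type, both lay nearer to wild-type than the median ribosomal protein gene. *NAP1* was 0.33 there.

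The other lists were mixed. Of 9 enzymes that modify ribosomal proteins, 4 passed 2-fold upwards and 3 downwards in *met15Δ* over wild-type, 1 and 0 in *rtg3Δ met15Δ* over *met15Δ*, and 3 and 1 in *rtg3Δ met15Δ* over wild-type, with medians of -0.04, 0.06 and 0.24. *RKM1*, *RKM2* and *RKM3*, lysine methyltransferases of the large subunit, had wild-type signals under those of other species' probe sets and were higher in *met15Δ* by at least 1.70-fold, 1.5-fold and 1.05-fold, so that of the 4 only *RKM5* (1.14 on the log2 scale) was past 2-fold with both signals above that level. In *rtg3Δ met15Δ* they were higher than in wild-type by at least 1.4-fold, 1.29-fold and 1.72-fold, which again leaves 1 of the 3 counted there, *RKM5*, at 1.2 on the log2 scale. *SFM1*, which methylates Rps3, *HMT1*, which methylates Rps2, and *HPM1*, which methylates a histidine of Rpl3, were lower in *met15Δ* (-1.02, -1.06 and -1.02), with *SFM1* higher in *rtg3Δ met15Δ* than in *met15Δ* (1.26). *TAE1*, the amino-terminal methyltransferase of Rpl12 and Rps25, was -1.51 in *rtg3Δ met15Δ* over wild-type.

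Of 9 measured elongation factor genes, 1 passed 2-fold upwards and 1 downwards in *met15Δ* over wild-type, 0 and 0 in *rtg3Δ met15Δ* over *met15Δ*, and 0 and 2 in *rtg3Δ met15Δ* over wild-type, with medians of -0.02, -0.38 and -0.22. *YEF3*, the fungal elongation factor that opens the exit site, was -1.30 in *rtg3Δ met15Δ* over wild-type. The eIF5A genes *HYP2* and *ANB1* went opposite ways in *met15Δ* over wild-type: *HYP2* was 1.4, whereas *ANB1*, the copy of low-oxygen growth, was at least 5.01-fold lower. Of 13 ribosome-associated factors, 2 passed 2-fold upwards and 0 downwards in *met15Δ* over wild-type, 0 and 1 in *rtg3Δ met15Δ* over *met15Δ*, and 0 and 4 in *rtg3Δ met15Δ* over wild-type, with medians of -0.32, -0.45 and -0.76. The 4 were *SSB1* (-1.32) and *SSB2* (-1.74), the ribosome-bound Hsp70 proteins, *SSZ1* (-1.35), of the complex that assists them, and *HBS1* (-1.65), a rescue factor of stalled ribosomes, which was also the gene lower between the mutants (-1.27). The count of 2 in *met15Δ* over wild-type holds *EGD1* (1.06), of the nascent chain complex, and *BTT1*, whose signals lay under those of other species' probe sets on all 3 arrays, which leaves *EGD1*.

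**Figure D5:**
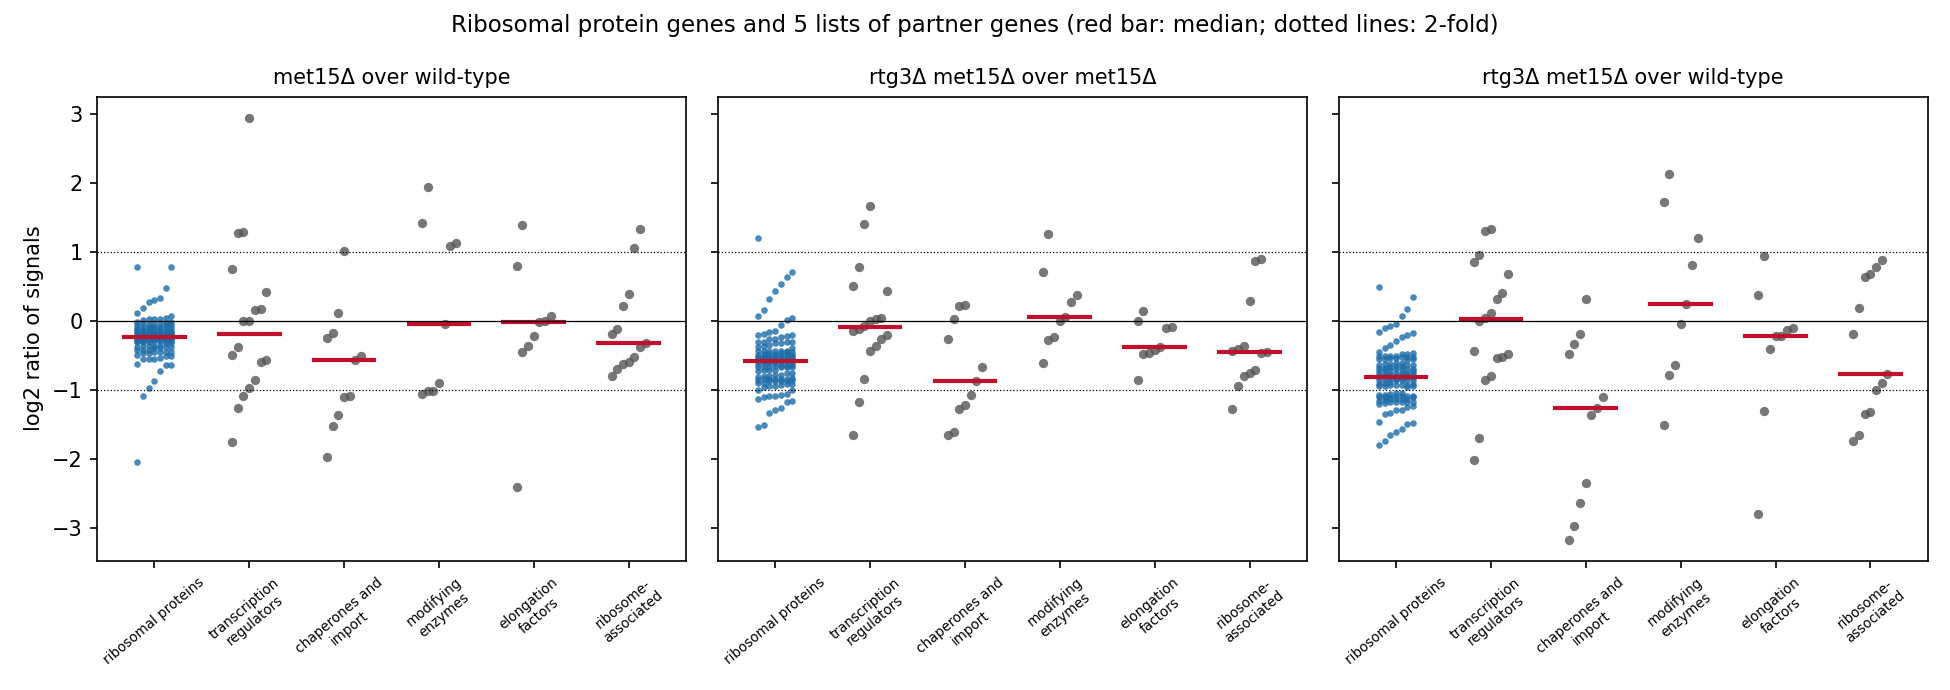
Log2 ratios (y axis) of the 127 ribosomal protein genes and of 5 lists of genes that act on them or with them (x axis) in the 3 comparisons, 1 point per gene, with red bars at the medians and dotted lines at 2-fold. The ribosomal protein genes lie close together, and the chaperones and import receptors reach -3.17 in *rtg3Δ met15Δ* over wild-type.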

How the data were processed

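The authors hybridized biotin-labelled RNA to 1 array per genotype and deposited 1 signal per probe set, made with RMA in RMAExpress on the natural, linear scale. The sources used here give neither its normalization options nor the genome build. From these signals a log2 ratio was taken per gene, as the mean of the log2 signals of its probe sets on each array; the deposited signals were otherwise used as given. Probe sets were named by the platform annotation and matched by gene ID to the R64 gene table, which was used for names and neighbour order, with 127 of 137 ribosomal protein genes found. The members and lists were chosen with earlier results of these data known. Counts use 2-fold, the cut-off of the methods, with 1.5-fold and 1.3-fold as descriptions. Named genes were the members at least 2-fold apart in any comparison, the 5 highest and 5 lowest of each, the paralogue pairs that differ most, the partner genes at least 2-fold apart, the main regulators and the label checks. *RPL10*, *RPL5*, *RPL25*, *RPL30*, *RPS3*, *RPL17*, *RPL43*, *RPS23A*, *BCP1*, *YAR1*, *NAP1* and the adjacent pairs were added after their values were seen. Where the dimmer signal of a fold did not exceed every signal of other species' probe sets on that array, the fold is a lower bound taken against the highest of those. Alternatives were other scalings, quantile and lowess normalization, the removal of ambiguous or dim probe sets, and the cut-off. With 1 array per genotype the number of arrays limits the precision, and no test was made; the ratio and count code was tested on simulated data. Analyses used Python 3.11.15 with pandas 2.3.3, numpy 2.4.6 and statsmodels 0.14.6. Promoter and protein sequences were not analysed here. Some genes that the naming rule would list are not reported here.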

Additional observations from a re-analysis of the deposited data

How the results depend on the processing

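Of the 111 settings of group medians, counts, subunit differences and paralogue counts tried, 87 stayed within 0.1 log2 units or 1.5 times of the value above. Some of the 87 could not have moved. Dividing each array by a constant, as 3 of the scalings do, leaves subunit differences and paralogue counts unchanged. The removal of dim members took out *RPL41A* alone. The median ribosomal protein ratio of *met15Δ* over wild-type became -0.54 after division by the array median and 0.30, the opposite direction, with the bacterial controls. For *rtg3Δ met15Δ* over *met15Δ* it became -0.77 with the array median, -1.35 with the bacterial controls and -0.69 with lowess, and for *rtg3Δ met15Δ* over wild-type -1.31 with the array median, -1.05 with the bacterial controls and -0.71 with quantile normalization. Genes at least 2-fold lower numbered 5, 35 and 107 with the array median and 1, 110 and 72 with the bacterial controls in the 3 comparisons, and 20 between the mutants with lowess. Genes at least 2-fold higher in *met15Δ* over wild-type numbered 3 with the bacterial controls and 0 in *rtg3Δ met15Δ* over *met15Δ* with the same controls. The 1.5-fold cut-off gave 8, 63 and 96 lower genes, and 2 and 3 higher genes in the first pair of comparisons. Without _s_at and _x_at probe sets 1 gene (*RPL18B*) was 2-fold higher in *met15Δ* and 1 in *rtg3Δ met15Δ*, each over wild-type. The 3 divisions shift all genes by the same constant: under each of them the median of the members minus that of all genes stayed at -0.31, -0.56 and -0.90, and it was -0.15, -0.54 and -0.74 with quantile normalization. Lowess, whose smoothing was fitted without the ribosomal protein genes, was added after seeing the data. No paired analysis was possible because each genotype has 1 array, and no replicate could be left out. For the single genes at least 2-fold apart, 374 values stayed past 2-fold, 18 did not and 0 changed direction. Part of the 374 could not have moved. The removal of *RPL41A* changed none of these values, and the removal of _s_at and _x_at probe sets could change only genes that have them. With the bacterial controls *RPS27A* was at -0.55 in *met15Δ* over wild-type and *RPS9A* at 0.43 in *rtg3Δ met15Δ* over *met15Δ*. The spread between cultures is unknown.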
